A study of Mus musculus with 22 samples.

Results

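Acyl-CoA thioesterases cut fatty acyl-CoA into a free fatty acid and coenzyme A (CoA). The 9 genes described here were chosen by symbol, with earlier results of these data known. Their counts beside those of all genes are therefore a description only. They comprise the thioesterases Acot1, Acot2, Acot3, Acot4, Acot8 and Acot12 and 3 genes tied to the same fasting program, Vnn1, Pdk4 and Creb3l3. All 9 were present among the 23227 genes of the mRNA counts and among the 23167 gene promoters counted for acetylation of histone H3 on lysine 27 (H3K27ac). All 9 passed the filter on low counts in both tables.

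The study compared livers of wild-type C57BL/6J mice, taken at 24 weeks of age after an overnight fast. The chow group ate a standard chow (Prolab Isopro RMH 3000) throughout, and the high-fat group ate a high-fat diet (S3282) for 16 weeks from the age of 8 weeks. Each diet had 3 mRNA libraries and 3 H3K27ac libraries, both made from powdered whole liver, and the fast was common to both diets. The labels do not say whether the libraries of 1 diet came from separate mice, so p-values measure the spread between these libraries, and the sex of the mice is not given in the labels.

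PPARα is a nuclear receptor that fatty acids and their derivatives activate, and it pairs with RXRα on DNA. In the fasted liver it raises genes of fatty acid uptake, oxidation and ketone production, several acyl-CoA thioesterases among them. Acot1 acts in the cytosol, Acot2 in mitochondria, and Acot3, Acot4 and Acot8 in peroxisomes, so the family acts on acyl-CoA in separate compartments. Acot12 is a cytosolic enzyme that cuts acetyl-CoA. Vnn1 is a membrane-bound pantetheinase that releases vitamin B5 and cysteamine from a breakdown product of CoA. Pdk4 phosphorylates and so holds back the pyruvate dehydrogenase complex, which makes acetyl-CoA from pyruvate. Creb3l3 (CREBH) is a transcription factor held in the endoplasmic reticulum membrane until it is cut, and it is known as a partner of PPARα at Fgf21.

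The start regions of the genes were searched for the direct repeat that PPARα and RXRα bind, AGGTCA followed by any 1 base and AGGTCA again, on both strands. RefSeq start regions of build GRCm38.p6, from 250 bases before to 50 bases after the first transcribed base, were matched by symbol for 8 of the 9 genes, and Vnn1 was not matched. No member had an exact match, against 0.0396% of all 32851 windows. Acot12 had a match with 1 mismatch (0.554% of windows), and Acot4 and 1 of the 2 Creb3l3 windows had matches with 2 mismatches (3.86% of windows have 2 or fewer). The 3 windows with a match are printed below with the matched bases in capitals, followed by Acot1, Acot2 and Pdk4, whose mRNA differed most between the diets and whose windows had none. All read 5′ to 3′ on the strand of the gene. The windows of Acot12 (chr13:91741271-91741570), Acot4 (chr12:84038129-84038428), Acot1 (chr12:84009252-84009551) and Acot2 (chr12:83987611-83987910) lie on the plus strand, and those of Creb3l3 (chr10:81092542-81092841) and Pdk4 (chr6:5496229-5496528) on the minus strand.
Acot12: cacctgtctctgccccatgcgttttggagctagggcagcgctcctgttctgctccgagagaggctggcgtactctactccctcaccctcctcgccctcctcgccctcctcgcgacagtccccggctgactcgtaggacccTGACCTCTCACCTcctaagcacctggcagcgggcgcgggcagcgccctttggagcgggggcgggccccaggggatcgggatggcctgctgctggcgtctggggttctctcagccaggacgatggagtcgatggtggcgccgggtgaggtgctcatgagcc
Acot4: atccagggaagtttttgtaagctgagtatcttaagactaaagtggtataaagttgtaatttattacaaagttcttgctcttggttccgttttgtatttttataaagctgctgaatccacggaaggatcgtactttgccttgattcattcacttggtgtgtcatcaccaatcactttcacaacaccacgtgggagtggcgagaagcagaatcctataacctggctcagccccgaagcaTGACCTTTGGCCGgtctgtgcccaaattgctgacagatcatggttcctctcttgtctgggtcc
Creb3l3: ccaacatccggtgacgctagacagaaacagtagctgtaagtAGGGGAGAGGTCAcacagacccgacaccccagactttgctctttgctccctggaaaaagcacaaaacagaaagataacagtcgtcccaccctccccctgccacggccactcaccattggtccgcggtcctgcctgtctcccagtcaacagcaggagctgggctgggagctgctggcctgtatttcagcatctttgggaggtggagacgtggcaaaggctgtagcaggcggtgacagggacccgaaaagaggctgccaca
Acot1: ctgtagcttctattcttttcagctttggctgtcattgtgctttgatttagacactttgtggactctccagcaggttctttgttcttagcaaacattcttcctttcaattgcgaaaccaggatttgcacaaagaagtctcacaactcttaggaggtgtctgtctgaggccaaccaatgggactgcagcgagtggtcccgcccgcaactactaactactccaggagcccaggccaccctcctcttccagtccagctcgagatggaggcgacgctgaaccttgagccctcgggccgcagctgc
Acot2: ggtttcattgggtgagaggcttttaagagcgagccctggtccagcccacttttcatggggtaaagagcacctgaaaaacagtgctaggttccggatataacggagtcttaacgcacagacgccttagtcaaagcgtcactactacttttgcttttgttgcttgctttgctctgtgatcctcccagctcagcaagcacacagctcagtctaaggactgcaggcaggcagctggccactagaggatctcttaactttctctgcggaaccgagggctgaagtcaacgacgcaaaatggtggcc
Pdk4: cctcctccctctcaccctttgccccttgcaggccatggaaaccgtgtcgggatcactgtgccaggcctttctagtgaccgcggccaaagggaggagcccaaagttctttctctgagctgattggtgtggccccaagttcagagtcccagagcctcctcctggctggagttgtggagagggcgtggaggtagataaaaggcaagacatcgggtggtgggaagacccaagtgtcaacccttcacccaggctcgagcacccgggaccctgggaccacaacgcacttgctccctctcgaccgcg

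In Acot12 the match began 110 bases before the start and in Acot4 13 bases before it, both on the opposite strand, and in Creb3l3 it began 209 bases before the start on the gene's own strand. A match is a description of letters and not a bound site. Acot1 to Acot4 stand close together on chromosome 12 and code for closely similar enzymes. Their start regions were not alike: pairs of these 4 windows shared 43.3% to 47.5% of aligned positions (1 window a gene). Pairs of matched members that held a gene from outside these 4 shared 42.9% to 49.7%.

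Total mRNA counts ran from 19016275 to 45741794 per library and H3K27ac counts at promoters from 1967613 to 4964403. Levels are given as counts per 1000000 counts of a library (CPM), with library totals scaled by TMM factors, with the standard deviation (SD) over the 3 libraries of a diet. Gene length was not used, so levels are compared between libraries and not between genes. Fold changes are high-fat diet against chow from edgeR's quasi-likelihood test and carry the SE, the standard error of the log2 estimate. The p values were adjusted by Benjamini-Hochberg over every gene or promoter tested, and only features with an adjusted p under 0.05 are said to have risen or fallen.

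Of the 9 genes, 4 fell in mRNA on the high-fat diet (Acot1, Acot2, Acot12 and Pdk4), 1 rose (Vnn1), and Acot3, Acot4, Acot8 and Creb3l3 did not pass. Among all 12909 genes tested 17.6% fell and 18% rose (35.6% in all), so calls were frequent in this comparison. That share moved with the libraries used, and no single library accounts for it. Against 4590 calls, the count was 2899 of 13211 genes tested when chow replicate 2 was dropped. It was 3233 when chow replicate 3 was dropped, and 3183 on dropping replicate 2 of the high-fat diet. It reached 5163 when replicate 1 of that diet was the one dropped. When libraries were scaled by their totals alone, 1646 genes fell and 2805 rose, against 2271 and 2319 with TMM, while the counts of members were again 4 and 1. An unadjusted p under 0.05 was reached by 6 of the 9 genes and by 46.6% of all genes. The diets did not overlap for 6 of the 9 genes and for 50.6% of all genes. The median log2 fold change of the 9 genes was −0.22, against 0.02 for all genes tested. In bulk liver, fewer cells of a type and less RNA per cell cannot be told apart.

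**Figure D1:**
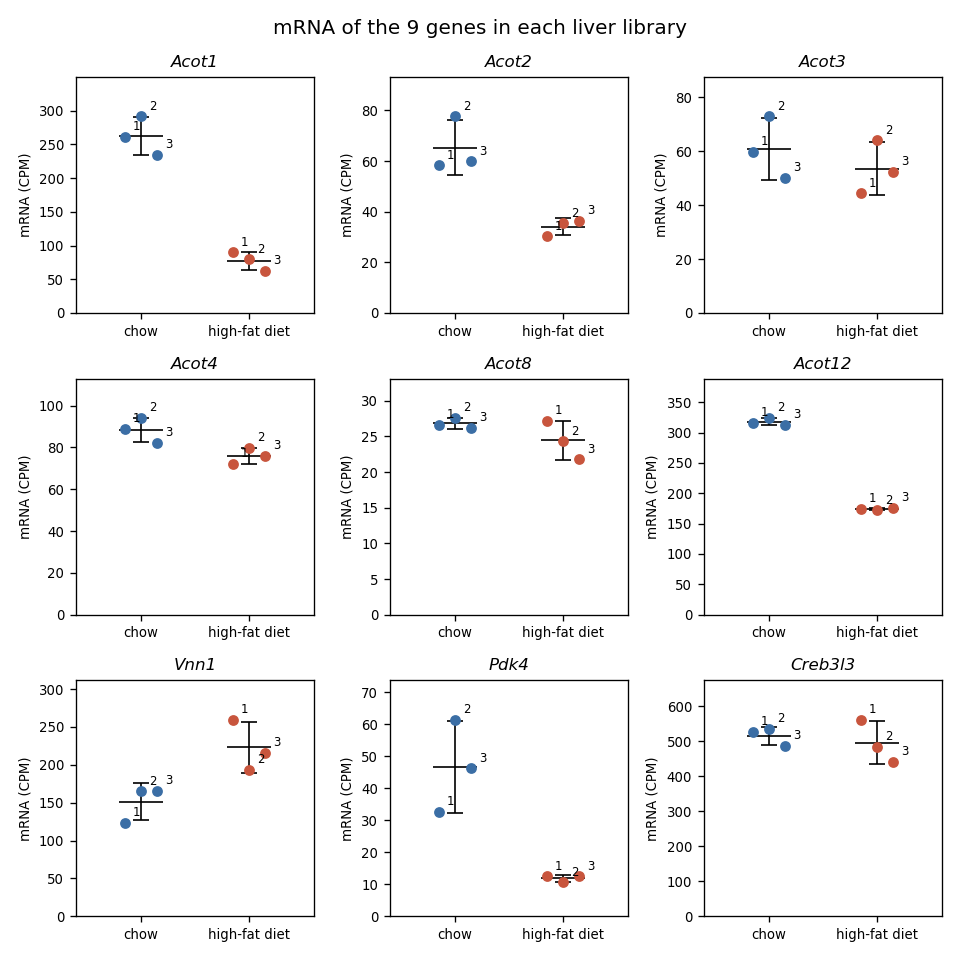
mRNA level in CPM (vertical axis, from 0) of each of the 9 genes in the 3 chow and the 3 high-fat-diet libraries (horizontal axis). Points are libraries with their replicate number, and bars are the mean and SD. Acot1, Acot2, Acot4, Acot12 and Pdk4 were lower in every high-fat-diet library than in any chow library, Vnn1 was higher, and the other 3 genes overlapped.

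Acot1, the cytosolic enzyme for long-chain acyl-CoA, had 261, 291 and 235 CPM in chow replicates 1 to 3 and 90.0, 79.5 and 62.9 CPM in high-fat-diet replicates 1 to 3. Every chow library was far above every high-fat-diet library. The means were 262 CPM (SD 28.4) and 77.4 CPM (SD 13.7), a 3.39-fold lower level (log2 −1.76, SE 0.141, adjusted p = 0.000135, edgeR). Its 95% interval ran from −2.08 to −1.44.

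Acot2, the mitochondrial enzyme encoded beside Acot1, had 58.4, 77.7 and 60.0 CPM in the chow libraries and 30.3, 35.4 and 36.4 CPM in the high-fat-diet libraries. The diets did not overlap, and chow replicate 2 stood above the other 2 chow libraries. The level was 1.92-fold lower (log2 −0.94, SE 0.129, adjusted p = 0.00115).

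The peroxisomal enzymes differed less between the diets. Acot3, which acts on long-chain acyl-CoA, had 59.7, 72.9 and 50.1 CPM on chow and 44.3, 64.1 and 52.3 CPM on the high-fat diet, with the libraries interleaved (log2 −0.18, 95% interval −0.56 to 0.19, adjusted p = 0.416). Acot4, best known for cutting succinyl-CoA, had 88.9, 94.1 and 82.3 CPM on chow and 72.0, 79.7 and 76.0 CPM on the high-fat diet. Its diets did not overlap, as in 25.5% of all genes tested in this direction, and its log2 fold change of −0.22 (95% interval −0.40 to −0.03) did not pass (adjusted p = 0.0645). Acot8, which takes acyl-CoA of many chain lengths and bile acid CoA esters, had 26.6, 27.6 and 26.2 CPM on chow and 27.2, 24.3 and 21.8 CPM on the high-fat diet (log2 −0.13, 95% interval −0.36 to 0.09, adjusted p = 0.313). In the authors' deposited table Acot8 does pass, with a log2 fold change of −0.33 and an adjusted p of 0.00239, and Acot3 and Acot4 do not.

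Reads of Acot1 to Acot4 may be split between these close relatives in a way the labels do not describe, so their sum was taken as well. The summed level was 468, 536 and 427 CPM in the chow libraries and 237, 259 and 228 CPM in the high-fat-diet libraries. All high-fat-diet sums were below all chow sums, with means of 477 CPM (SD 55.1) and 241 CPM (SD 16.0), a 1.98-fold lower sum. The exact two-sided permutation test over libraries gave p = 0.1, the smallest value that 3 against 3 can give.

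The make-up of this sum differed too. Acot1 took 55.8%, 54.4% and 55.0% of the counts of the 4 genes in the chow libraries and 38.0%, 30.7% and 27.6% in the high-fat-diet libraries. Acot4 took 19.0%, 17.6% and 19.3% on chow and 30.4%, 30.8% and 33.4% on the high-fat diet. Acot3 went from a mean of 12.7% (SD 0.940) to 22.2% (SD 3.10), while Acot2 stayed near its share, with 13.7% (SD 1.06) on chow and 14.2% (SD 1.66) on the high-fat diet. Such shares lie within 1 library, so no scaling between libraries can move them. The shares of a library add up to the whole, so a smaller Acot1 share must enlarge the rest. In CPM the means of Acot3 (60.9 on chow, 53.6 on the high-fat diet) and Acot4 (88.4 and 75.9) were not higher on the high-fat diet. Splitting of reads between the 4 relatives could also shift the shares, which was not tested.

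**Figure D2:**
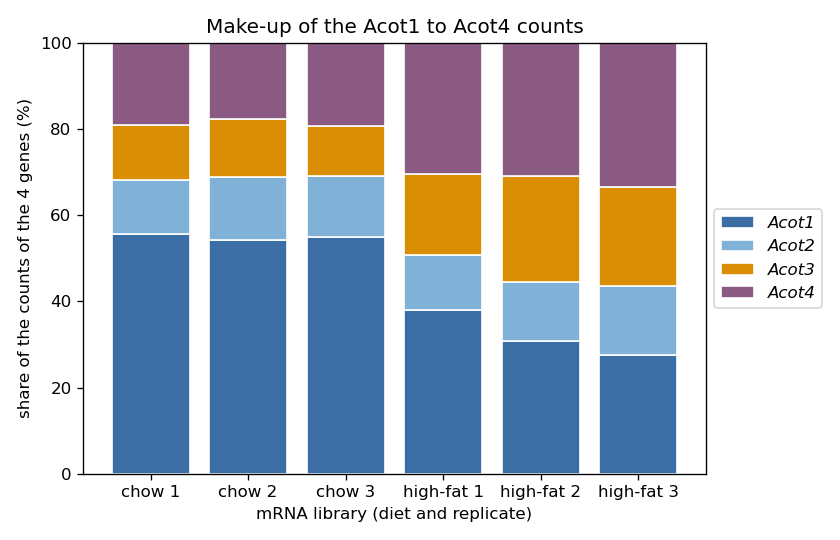
Share of the summed Acot1, Acot2, Acot3 and Acot4 counts (vertical axis, percent) taken by each gene in the 6 mRNA libraries (horizontal axis). The Acot1 part of the bars covers 54.4% to 55.8% in the chow libraries and 27.6% to 38.0% in the high-fat-diet libraries.

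Ratios of counts within a library set the members against each other without any scaling. Acot1 counts per Acot2 count were 4.47, 3.75 and 3.92 on chow and 2.97, 2.24 and 1.73 on the high-fat diet. Acot1 counts per Acot8 count were 9.79, 10.6 and 8.97 on chow and 3.31, 3.27 and 2.89 on the high-fat diet. In both ratios the diets did not overlap. These pairs were chosen after the members' values were seen, so the ratios are given as a description only. Acot3 per Acot4, by contrast, had means of 0.685 (SD 0.0841) and 0.702 (SD 0.0951), with the libraries of the diets mixed.

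Acot12, the cytosolic acetyl-CoA hydrolase, lies away from this cluster, on chromosome 13. Its level was 315, 324 and 313 CPM in the chow libraries and 175, 172 and 176 CPM in the high-fat-diet libraries. The spread within a diet was the smallest of the 9 genes on the high-fat diet, with an SD of 1.22% of the mean, and was 1.82% on chow. Acot12 was 1.82-fold lower on the high-fat diet (log2 −0.87, SE 0.0695, adjusted p = 0.000135).

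Pdk4 showed the largest fold change of the 9 genes. It had 32.6, 61.5 and 46.2 CPM in the chow libraries and 12.5, 10.6 and 12.5 CPM in the high-fat-diet libraries. The chow libraries differed widely among themselves (SD 30.9% of the mean), yet the lowest of them was above all high-fat-diet libraries. Pdk4 was 3.92-fold lower (log2 −1.97, SE 0.215, adjusted p = 0.000433).

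Vnn1 changed in the other direction. It had 124, 165 and 166 CPM in the chow libraries and 260, 193 and 216 CPM in the high-fat-diet libraries, so that every high-fat-diet library was above every chow library, as in 25.1% of all genes tested. Vnn1 rose 1.47-fold (log2 0.56, SE 0.145, adjusted p = 0.0181). Without chow replicate 1, its lowest library, the log2 fold change was 0.43 and the call ended (adjusted p = 0.0504).

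Creb3l3 had 527, 534 and 486 CPM in the chow libraries and 561, 485 and 440 CPM in the high-fat-diet libraries. High-fat-diet replicate 1 was the highest and replicate 3 the lowest of the 6 libraries (log2 −0.06, 95% interval −0.31 to 0.19, adjusted p = 0.705). Its sign turned with library totals (log2 0.013) and without high-fat-diet replicate 3 (log2 0.020). The authors' deposited table lists Creb3l3 with a log2 fold change of −0.26 and an adjusted p of 6.41e-05. For the 5 genes called here, that deposited table has the same signs, from −1.93 for Acot1 to 0.73 for Vnn1.

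Markers of other cells moved with diet as well. Of 14 exocrine pancreas markers 12 were tested and 11 fell, with none at 0 in all libraries. Their summed level ran from 348 to 2083 CPM in the chow libraries and from 10.4 to 199 CPM in the high-fat-diet libraries. With libraries scaled by their totals 8 of the 12 fell. The sum was highest in chow replicate 1, and without that library the log2 fold changes were −1.77 for Acot1, −1.02 for Acot2, −0.87 for Acot12 and −2.18 for Pdk4, these 4 still past the threshold. Vnn1 lost its call in that same setting (log2 0.43, adjusted p = 0.0504, edgeR). Chow replicates 2 and 3, with pancreas marker sums of 919 and 348 CPM, were still above every high-fat-diet library. That setting therefore cannot separate the pancreas difference from diet. Of 8 hepatocyte markers 1 rose (Ttr) and 3 fell (Cps1, Ass1 and Tat), with sums from 86353 to 93878 CPM on chow and from 80693 to 101755 CPM on the high-fat diet. Among 8 Kupffer cell and macrophage markers 1 rose (Cd68), with sums from 188 to 357 CPM on chow and from 228 to 437 CPM on the high-fat diet. Of 7 stellate cell and fibroblast markers 2 rose (Col1a1 and Col3a1) and 1 fell (Dcn, not with library totals), with sums from 300.1 to 310.7 CPM on chow and from 195 to 467 CPM on the high-fat diet. Of the 5 adipocyte markers only Cfd was tested, and it rose, with list sums of 0.376 to 2.82 CPM on chow and 9.85 to 19.8 CPM on the high-fat diet. The 4 globin genes among the 5 red blood cell markers were listed at 0 in every library, and the remaining one, Alas2, rose, with 64.5 to 92.7 CPM on chow and 94.3 to 124 CPM on the high-fat diet. These marker genes were named after their values were seen. None of the tested endothelial (6), bile duct (5) or lymphocyte (4) markers passed by edgeR. The part of these other cells in the results was not tested.

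H3K27ac marks active promoters and enhancers, and it was counted at the promoter of each gene. None of the 9 promoters passed the threshold by edgeR or by DESeq2, while 0.235% of the 20891 promoters tested did (0.187% higher and 0.0479% lower). That share is not stable: its 49 calls became 0 to 736 when 1 library was left out, with 0 without chow replicate 2 and 736 without high-fat-diet replicate 2. At an unadjusted p under 0.05 there were 5 of the 9 (Acot2, Acot3, Acot8, Acot12 and Pdk4), against 14% of all promoters. All 9 log2 fold changes were below 0, from −0.38 to −0.13 with a median of −0.24, whereas 50.6% of all promoters were below 0 with a median of −0.003. Of the 8 hepatocyte marker promoters, 7 were below 0, with a median of −0.23. The depth behind these values was modest, with 46 to 566 counts per promoter and library.

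**Figure D3:**
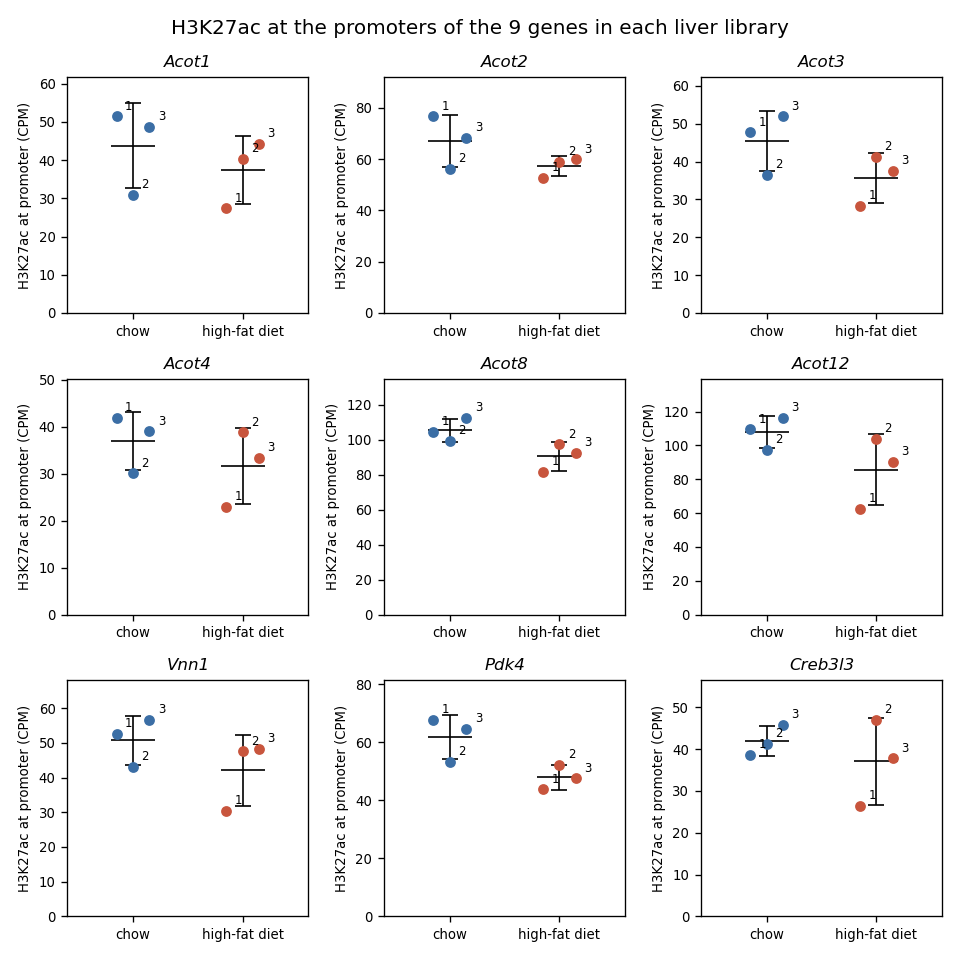
H3K27ac at the promoter of each of the 9 genes in CPM (vertical axis, from 0) in the 3 chow and the 3 high-fat-diet libraries (horizontal axis), with points, replicate numbers, means and SD as for mRNA. High-fat-diet replicate 1 is the lowest point in every panel, and the diets do not overlap for Acot8 and Pdk4 alone.

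Pdk4 had the lowest p of the 9 promoters. Its H3K27ac level was 67.8, 53.3 and 64.7 CPM in the chow libraries and 43.8, 52.3 and 47.6 CPM in the high-fat-diet libraries. The diets did not overlap, with 53.3 CPM in the lowest chow and 52.3 CPM in the highest high-fat-diet library (log2 −0.38, SE 0.110, 95% interval −0.60 to −0.15, adjusted p = 0.126). Acot8 was the other promoter whose diets did not overlap, with 105, 99.3 and 113 CPM on chow and 81.6, 97.5 and 92.4 CPM on the high-fat diet (log2 −0.22, adjusted p = 0.299). These 2 of 9 stand beside 9.73% of all promoters whose high-fat-diet libraries were all below the chow libraries, and 19.5% whose diets did not overlap in either direction.

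At Acot12 the promoter had 110, 97.6 and 116 CPM on chow and 62.7, 104 and 90.5 CPM on the high-fat diet (log2 −0.31, 95% interval −0.55 to −0.06, adjusted p = 0.244). Acot1 had 51.4, 31.0 and 48.7 CPM and then 27.4, 40.4 and 44.3 CPM, with the diets overlapping (log2 −0.23, 95% interval −0.56 to 0.11, adjusted p = 0.551). The mRNA interval of Acot1 lay wholly below this promoter interval, and the same was so for Acot2, Acot12 and Pdk4. These are values from separate assays on separate scales, and the difference between them was not tested.

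Vnn1 had mRNA and promoter values of opposite sign. Its promoter had 52.6, 43.0 and 56.7 CPM on chow and 30.4, 47.5 and 48.2 CPM on the high-fat diet (log2 −0.25, 95% interval −0.54 to 0.04, adjusted p = 0.427). The promoters of Acot2, Acot3, Acot4 and Creb3l3 had log2 differences of −0.24, −0.34, −0.21 and −0.13, with adjusted p values from 0.287 to 0.724 and overlapping diets.

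High-fat-diet replicate 1 was the lowest of the 6 libraries at all 9 promoters, and at 27.6% of all promoters tested. That library also had the fewest promoter counts of the 6 (1967613), and the part of depth was not tested. It was also the lowest at 6 of 8 hepatocyte marker promoters, whose summed H3K27ac was 600, 621 and 599 CPM on chow and 405, 567 and 528 CPM on the high-fat diet, with a median log2 fold change of −0.23. Without that library the median was −0.16 for the 9 genes, −0.13 for the hepatocyte markers and −0.002 for all promoters. Values below 0 then numbered 8 of the 9 genes and 7 of the 8 hepatocyte markers. The sign of Creb3l3 turned in that setting (log2 0.014). Without high-fat-diet replicate 2, the promoters of Acot12 (log2 −0.47, adjusted p = 0.0246) and Pdk4 (log2 −0.45, adjusted p = 0.0402) passed, in a setting where 736 promoters were called in place of 49.

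**Figure D4:**
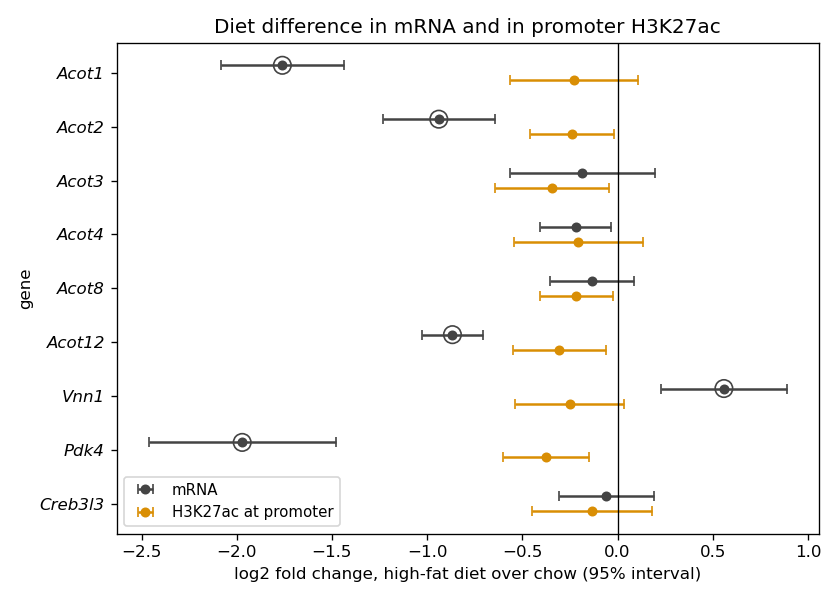
Log2 fold change, high-fat diet over chow (horizontal axis), with its 95% interval for the mRNA (dark) and for promoter H3K27ac (orange) of each gene (vertical axis). Open circles mark adjusted p under 0.05, which 5 mRNA values and none of the promoter values reached, and all 9 promoter values lie between −0.38 and −0.13.

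The counts of the gene lists that follow are read against the 18% of all genes tested that rose, the 17.6% that fell and the median log2 fold change of 0.02 over all genes. With library totals 2805 rose and 1646 fell of the 12909 genes. The shares of the lists were not tested against these, and no list is called particular from them. Lists can share genes, as with Acsl1 and Fgf21, so their counts are not separate evidence.

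The rest of the thioesterase family held both rising and falling genes, with a median log2 fold change of 0.30. Of 14 other genes with thioesterase activity or homology 8 were tested, 4 rose, 2 fell and Acot6 and Acot9 did not pass. Acot11 (Them1), which cuts long-chain acyl-CoA and is known from brown fat, had 101, 28 and 30 counts in the chow libraries and 276, 299 and 475 counts in the high-fat-diet libraries. Its mean was 1.80 CPM on chow and 15.3 CPM on the high-fat diet, 8.17-fold higher (log2 3.03, SE 0.277, adjusted p = 0.000212), while its promoter H3K27ac had a log2 difference of −0.02 (95% interval −0.22 to 0.18). Fasn, the fatty acid synthase, whose own thioesterase domain frees palmitate, rose 2.45-fold, Acot7 1.35-fold and Acot13 1.25-fold. Baat, which joins bile acids to glycine or taurine and is a structural relative of Acot1, was 1.56-fold lower and Them4 1.28-fold lower. With libraries scaled by their totals 4 rose and 1 fell. Besides Acot11 and Fasn, these genes were named after their values were seen.

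Genes that make and break CoA, the cofactor that thioesterases release, included both rising and falling genes, with a median log2 fold change of 0.05. Of 15 tested, 5 rose, 3 fell and 7 did not pass. The 4 pantothenate kinases Pank1 to Pank4, which start CoA synthesis, were among those that did not pass. The 8 calls among 15 genes stand beside 35.6% of all genes. Slc5a6, which imports pantothenate, rose 2.80-fold (7.02 to 19.7 CPM), and Vnn3, the close relative of Vnn1, rose 1.33-fold. The CoA-cutting enzymes Nudt8 and Nudt7 rose 1.51-fold and 1.43-fold, and Enpp1 1.21-fold. Ppcs, of CoA synthesis, had a log2 fold change of −0.43, the mitochondrial CoA carrier Slc25a42 −0.41 and Enpp3 −0.47. Only Slc5a6 and Nudt8 were named by the size of their change, and the others after their values were seen.

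On the other side of the cycle stand the enzymes that load fatty acids onto CoA. Of 15 tested synthetases and carriers 4 rose, 4 fell and 7 did not pass, and with library totals 6 rose and 3 fell. The median log2 fold change was 0.09, and the 8 calls among 15 genes stand beside 35.6% of all genes. Acsl4, which prefers arachidonic acid, was 2.24-fold lower and the acyl-CoA binding Acbd5 1.80-fold lower, with log2 fold changes of −0.43 for Acsl5 and −0.44 for Acsl1. The medium-chain synthetases Acsm1, Acsm5 and Acsm3 rose 1.69-fold, 1.55-fold and 1.39-fold, and Acss2, which activates acetate, 1.28-fold. Apart from Acsl4 and Acbd5 these were named after their values were seen.

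Around Pdk4, another kinase of the same complex, Pdk2, rose 1.72-fold. Pdk4 counts per Pdk2 count were 0.433, 0.934 and 0.775 on chow and 0.117, 0.0951 and 0.0992 on the high-fat diet, a 6.89-fold lower mean ratio. This pair sets a gene that rose against one that fell, so the ratio is a description and its lack of overlap is no further evidence. The phosphatase gene Pdp2, whose product switches the complex back on, rose 1.76-fold. Of 11 tested genes of the complex and its regulators 2 rose and 5 fell (Pdhb, Pdhx, Dlat, Dld and Pdp1, with log2 fold changes from −0.78 to −0.27), whereas with library totals 2 rose and 1 fell. The median log2 fold change of the list was −0.15. Those 5 were named after their values were seen.

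Ppara itself and Rxra were higher on the high-fat diet, Ppara by 1.24-fold (528 to 652 CPM, adjusted p = 0.0314) and Rxra by 0.49 on the log2 scale (486 to 682 CPM, adjusted p = 0.00593). Of the 18 tested genes of the receptor, its partners and coregulators 6 rose, 2 fell and 10 did not pass, with a median log2 fold change of 0.08. The 8 calls among 18 genes are not far from the 35.6% of all genes. Lpin1, a phosphatidate phosphatase that also acts as a coactivator, rose 3.16-fold, Ppargc1b 1.67-fold and Ppard 1.42-fold. The coactivator gene Ppargc1a was 1.46-fold lower and Lpin2 1.28-fold lower. Ppard, Ppargc1a and Lpin2 were named after their values were seen.

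Other targets of the receptor were described with the same test. Of 29 tested, 14 fell, 2 rose (Cd36, a fatty acid importer, and Tmem38b, both named after their values were seen) and 13 did not pass, with a median log2 fold change of −0.34. With library totals 13 fell and 2 rose. Ehhadh, a peroxisomal enzyme of β-oxidation, was 8.30-fold lower and Cyp4a14, a fatty acid hydroxylase, 6.70-fold lower. None of the promoters of these other thioesterases, CoA, synthetase, pyruvate dehydrogenase, receptor, target or CREB3 genes passed in H3K27ac by edgeR.

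Around Creb3l3, the related factors Creb3l2 and Creb3l1 rose 3.46-fold (6.80 to 23.4 CPM) and 2.74-fold (0.667 to 1.76 CPM). Of 11 tested family members, processing proteases and targets 4 rose and 4 fell, with a median log2 fold change of −0.48. The protease genes that release the factor split, with Mbtps1 at a log2 fold change of 0.28 and Mbtps2 at −0.69. Among its known targets Apoc2 rose 1.38-fold, while Fgf21, a fasting hormone, was 2.33-fold lower, Hamp, which encodes hepcidin, 2.17-fold lower and Apoa5 lower by a log2 fold change of −0.48. Apart from Creb3l2 and Creb3l1 these were named after their values were seen.

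Across the 6 mRNA libraries the genes most like Acot1 in log2 CPM were Ppia, Ebna1bp2 and Cep110, with Pearson r from 0.997 to 0.998. The genes most like Pdk4 were Rnf139, Usp1 and Mki67ip (r from 0.998 to 0.999), and those most like Vnn1 were Akap17b, Gata6 and Srprb (r from 0.975 to 0.993). These are the highest of 12908 genes over 6 libraries that share the diet difference, given as a description only.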

How the data were processed

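Liver mRNA and promoter H3K27ac were analysed in 6 libraries each. Per the submitters' processing notes, TopHat 1.4.0, HTSeq, DESeq2 1.0.18 and bedtools were used for mRNA, and Bowtie 0.12.7, MACS 1.4.0rc2, bedtools and DESeq2 for H3K27ac, on mouse build mm9; their roles are not stated. Raw counts for each gene and promoter, as deposited, were the starting values, with no coordinates, promoter width or gene length. The authors' deposited tables hold log2 fold changes, p-values and adjusted p-values, and whether the log2 values were shrunken is not stated. Peak lists and the authors' normalized values were not used, since no mm9 annotation tied peaks to genes.

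Counts were fitted with edgeR 4.0.16 in R 4.3.3 (filterByExpr by diet, TMM factors, quasi-likelihood F test, two-sided, diet as the only term), over all 12909 genes or 20891 promoters. The fits were also run on counts simulated from the fitted dispersions with planted changes, which cannot show that the model suits these libraries. Each gene had 1 promoter row, so no choice between rows arose. DESeq2 1.42.0, other scalings, no filter, a replicate block and leaving out each library were alternatives. Within-library ratios were added after the data were seen. Exact permutation tests run on them gave unadjusted p values from 0.1 to 0.7, and the ratios are given as a description only. No pair of libraries of 1 diet agreed within sampling noise. Reads carry no molecular identifiers. The members and gene lists were chosen with earlier results of these data known. The rule for named genes took all members, the 2 largest changes past the threshold in each list, Ppara and Rxra, and the 3 genes most like Acot1, Pdk4 and Vnn1. Other genes behind the counts of the lists were named after their values were seen, and the text says so beside them. The labels name no batch, and one matching the diets cannot be told apart from them.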

Additional observations from a re-analysis of the deposited data

How the results depend on the processing

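In mRNA the calls of Acot1, Acot2, Acot12 and Pdk4 held under all 11 alternatives, with log2 fold changes from −1.88 to −1.63, −1.02 to −0.80, −0.89 to −0.79 and −2.18 to −1.73. Acot3, Acot4 and Acot8 passed under none of the 11 and stayed below 0. Vnn1 ranged from 0.43 to 0.65, and Creb3l3 from −0.16 to 0.020, turning with total counts (log2 0.013) and without high-fat-diet replicate 3 (log2 0.020). The summed Acot1 to Acot4 level ranged from −1.08 to −0.90 on the log2 scale when each library was left out, where 2 against 3 cannot give an exact permutation p below 0.2, and was −0.91 with total counts. Leaving out each library gave 2899 to 5163 genes called, with 2899 without chow replicate 2. At promoters it gave 0 to 736, so that count was not stable: 1 without chow replicate 1, 0 without chow replicate 2 (2431 at an unadjusted p under 0.05), 7 without chow replicate 3, and 95, 736 and 8 without high-fat-diet replicates 1, 2 and 3. DESeq2 called 37 promoters, and its count was not recomputed with a library left out. The promoter sign of Creb3l3 turned without high-fat-diet replicate 1 (log2 0.014), with a lowest value of −0.34 without high-fat-diet replicate 2, and no other member's promoter changed sign under the 11 alternatives. The cause of these shifts was not tested. With the replicate number as a block 4462 genes and 470 promoters passed, and no member's call changed. Whether equal numbers mark paired libraries cannot be settled from 3 pairs an assay. Deviations of equally numbered libraries correlated at 0.04, −0.04 and 0.14 in mRNA and at 0.09, −0.01 and 0.04 at promoters. Unequally numbered pairs ran from −0.12 to 0.09 in mRNA and from −0.13 to 0.12 at promoters. The sum over several promoter rows was not run, since each gene had 1 row.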
